A study of Mus musculus with 6 samples.

Results

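Enzymes that hydrolyse acyl-CoA and proteins that bind it were followed by RNA sequencing in KPC1199, a line of mouse pancreatic tumor cells by its labels. The members were the 10 genes Acot1, Acot2, Acot7, Acot8, Acot9, Acot13, Dbi, Acbd3, Acbd5 and Acbd6, taken by gene name from tables of 57508 genes. All 10 were present and all 10 passed the filter on low counts. There were 3 libraries of ACSL5 knockdown cells and 3 of WT cells. Library names are siACSL5 with a numeric code for the knockdown cells, whose titles say KO, and siACSL5_CY3 for the WT cells. The labels do not say what the code and CY3 stand for or which agent the cells of either group received. All libraries come from 1 cell line, no label says whether they are separate cultures, and p-values therefore measure a spread that may be technical. The question behind the comparison is the role of ACSL5 in pancreatic ductal adenocarcinoma.

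Acyl-CoA is fatty acid that a synthetase such as ACSL5 has joined to coenzyme A, the form in which cells oxidise, elongate or esterify it. Acyl-CoA thioesterases (ACOT) reverse that step and release free fatty acid and coenzyme A, each in its own compartment. Acyl-CoA binding proteins hold the ester in solution, and several of them also tether organelles or recruit enzymes to membranes.

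Totals were 23095334 to 26047445 expected counts in knockdown libraries and 21794201 to 29996160 in WT libraries. Levels are given as CPM, counts per library total, scaled by the trimmed mean of M values (TMM), and fold changes as log2 of knockdown over WT. Acsl5, the target, was at 49.8, 55.6 and 57.2 CPM in knockdown replicates 1, 2 and 3, against 342, 265 and 270.2 CPM in WT replicates 1, 2 and 3, which is 18.5% of the WT mean. Its log2 fold change was -2.43 (SE 0.167, edgeR adjusted p = 0.0619) with 6 libraries, the smallest p of all genes, and -2.32 (SE 0.0638, edgeR adjusted p = 5.95e-08) without WT replicate 1. WT replicate 1 stood apart, since its Pearson correlation of log2 CPM over genes was 0.902 to 0.922 with each other library, while pairs without it reached 0.972 to 0.992. Fold changes are therefore given with all 6 libraries and without WT replicate 1. Of 10 epithelial tumour markers, 9 had a mean of at least 1 TPM (counts per transcript length and library, the authors' values), with summed levels of 8114 to 8893 TPM in knockdown and 8724 to 9383 TPM in WT libraries, and Cldn4 had no counts. Marker lists of T cells (0 of 5) and endothelium (0 of 4) had no gene at 1 TPM, and Adgre1, Cd3e, Cd2, Cdh5, Tek, Lum, Ptf1a and Pnlip had no counts in any library. Fibroblast markers summed to 75.6 to 84.3 TPM in knockdown and 42.3 to 101.9 TPM in WT libraries (4 of 7 genes at 1 TPM), acinar markers to 14.9 to 17.7 and 9.49 to 16.1 TPM (2 of 6), and macrophage markers to 7.19 to 8.59 and 3.55 to 6.53 TPM (1 of 6). The part of these lists in the results was not tested. In such bulk RNA, fewer cells of a kind and less RNA per cell cannot be told apart.

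In the comparison of knockdown with WT cells, the mitochondrial thioesterase gene Acot9 and the cytosolic Acot1 were lower in all 3 knockdown libraries than in any WT library, and so was Dbi, the main acyl-CoA binding protein gene. The mitochondrial Acot2 and the peroxisomal Acot8 were higher in all 3. Groups thus did not overlap for 5 of 10 genes, against a background of 34.3% of all 14679 genes tested, with 18.7% higher and 15.6% lower in knockdown cells. The same 5 genes were found with CPM of library totals, where 23.2% of all genes were higher and 11.1% lower, and with TPM, where 31.3% of all genes did not overlap (25.6% higher and 5.61% lower). Without WT replicate 1, Acbd3 joined them on the lower side, 6 of 10 against 59.8% of all genes (30.4% higher and 29.3% lower). Against TMM, whose median log2 fold change over all genes was -0.020, that median was 0.085 with library totals and 0.26 on the log2(TPM + 1) scale. In the edgeR quasi-likelihood test with Benjamini-Hochberg adjustment over all genes, 0 of 10 passed an adjusted p of 0.05 with the 6 libraries, where 0.0% of all genes passed. At an unadjusted p below 0.05 there were 2 of 10 (Acot8 and Acot9), against 2351 of all 14679 genes. DESeq2 called 1 of 10 (Acot9; 7.68% of all genes) and limma-voom 0. With library quality weights in limma 4 of 10 passed, against 40.4% of all genes. Without WT replicate 1, 4 of 10 passed in edgeR, Acot2 and Acot8 higher and Acot1 and Acot9 lower, against a background of 34.3% of 15152 genes. The share called, 4 of 10, is near that of all genes. The median log2 fold change of the 10 genes was -0.084 without WT replicate 1 (all genes -0.0089) and -0.34 with it (all genes -0.020).

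**Figure D1:**
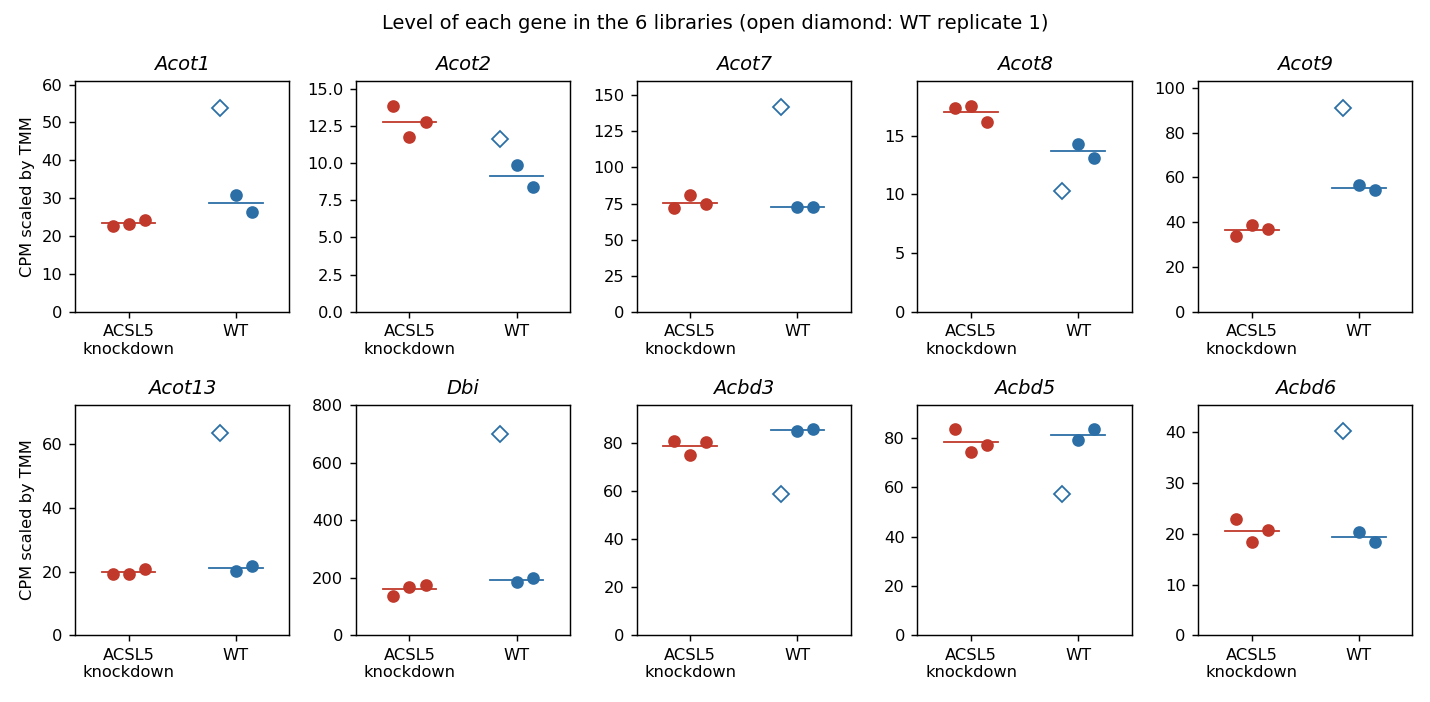
CPM scaled by TMM (y axis, from 0) of the 10 genes in the 3 ACSL5 knockdown libraries (red, left) and the 3 WT libraries (blue, right; the open diamond is WT replicate 1), with a line at the mean of the knockdown libraries and of WT replicates 2 and 3. Acot9 lies between 33.9 and 38.7 CPM in knockdown and between 54.2 and 90.8 CPM in WT libraries, while Acot7, Acot13 and Acbd6 differ between groups mainly through the open diamond.

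Per length, Dbi was by far the most abundant transcript of the family. It averaged 773.8 ± 31.9 TPM in knockdown cells (SD, n = 3) and 1163 ± 466 TPM in WT cells (SD, n = 3), or 894.3 ± 24.8 TPM in WT replicates 2 and 3 (SD, n = 2). Dbi made up 87.4% to 89.6% of the summed TPM of the 4 binding protein genes in knockdown libraries and 89.8% to 96.1% in WT libraries. In knockdown cells it was followed by Acot7 at 91.6 ± 6.10 TPM and Acot13 at 63.4 ± 1.88 TPM, each apart from its neighbours in all 3 libraries. Acot9 (35.8 ± 3.08 TPM), Acbd5 (35.4 ± 3.06), Acot1 (34.4 ± 13.2), Acbd3 (33.5 ± 1.20), Acot8 (31.5 ± 2.30) and Acbd6 (30.7 ± 4.36) formed a run in which neighbours overlapped, and Acot2 was lowest at 12.7 ± 0.491 TPM. In WT replicates 2 and 3, Acot7 (87.9 ± 0.134 TPM) and Acot13 (84.9 ± 30.7 TPM) overlapped, as did Acot13 and Acot1. Acot1 (61.03 ± 5.48 TPM) and Acot9 (53.9 ± 2.26 TPM) stood above Acbd3 (36.2 ± 0.276 TPM), Acbd5 (34.5 ± 1.13), Acbd6 (27.7 ± 3.49) and Acot8 (23.05 ± 2.43), and Acot2 was again lowest at 9.45 ± 1.26 TPM. The 6 thioesterase genes summed to 249.8, 286.6 and 271.6 TPM in knockdown replicates 1, 2 and 3, against 333.2, 306.8 and 333.8 TPM in WT replicates 1, 2 and 3. The 4 binding protein genes summed to 844.9, 893.6 and 881.5 TPM in knockdown and 1769, 976.6 and 1009 TPM in WT libraries. Neither pair of sums overlapped between the groups, while 31.3% of all 14679 genes did not overlap in TPM (5.61% lower in knockdown). That share is of single genes and not of sums. The binding protein sum is mostly Dbi, and Acbd3, Acbd5 and Acbd6 each overlapped between the groups. Of the thioesterase genes, Acot1 and Acot9 were lower, Acot2 and Acot8 higher, and Acot7 and Acot13 overlapped. The separation of the thioesterase sums rests on the Acot1 TPM and is as uncertain as that value. Limits of the Acot1 and Acot13 TPM are given below.

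**Figure D2:**
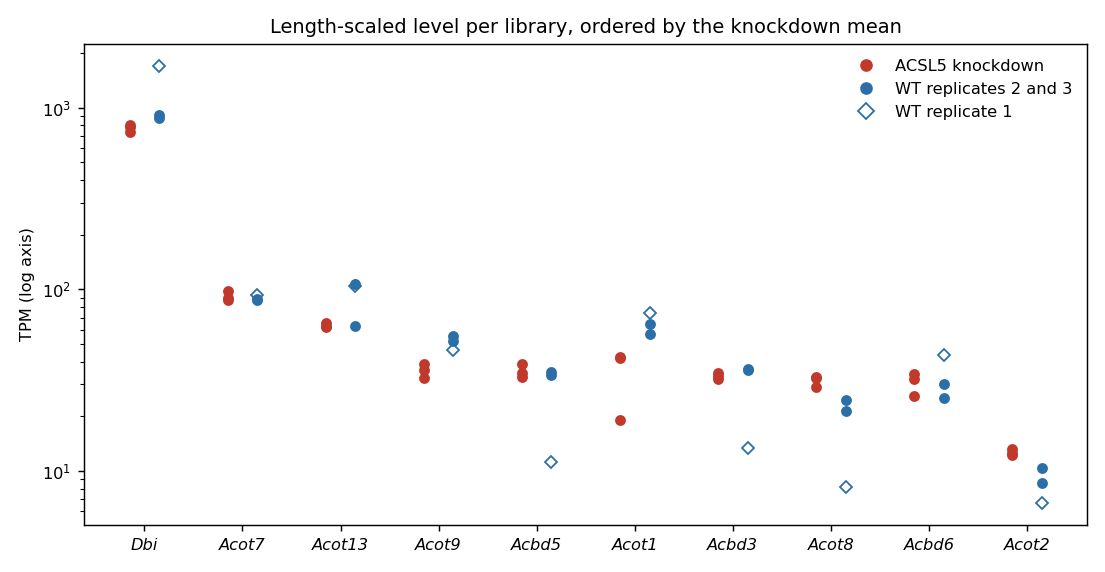
Deposited TPM (y axis, log scale) of each gene in the knockdown libraries (red), WT replicates 2 and 3 (filled blue) and WT replicate 1 (open diamond), ordered from left to right by the knockdown mean. Dbi lies between 739 and 1700.3 TPM in all 6 libraries and Acot2 is lowest in each group, and 1 knockdown library lies apart for Acot1 at 19.2 TPM.

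Acot9, a thioesterase of the mitochondrion, had the smallest p of the family. Its level was 33.9, 38.7 and 36.8 CPM in knockdown replicates 1, 2 and 3, against 90.8, 56.6 and 54.2 CPM in WT replicates 1, 2 and 3. Every knockdown library lay below every WT library, and WT replicate 1 was the highest. The log2 fold change was -0.88 (SE 0.231, edgeR adjusted p = 0.181) with 6 libraries and -0.62 (SE 0.0728, edgeR adjusted p = 0.000152) without WT replicate 1, where Acot9 ranked 512 of 15152 genes by p. It was the only member called in edgeR after the trend of each of the 6 libraries with gene length had been removed (-0.70, adjusted p = 0.0226), where 5.8% of all genes were called (3.03% higher, 2.77% lower). It passed in all 18 alternatives of the 5-library fit, with log2 fold changes of -0.65 to -0.53. Of 20 alternatives of the 6-library fit it passed in 5, with -1.02 to -0.51 and adjusted p up to 0.593 over the 20. Among those 5 is the fit without WT replicate 1 itself, already given above. Acot9 (ENSMUSG00000025287) occupies bases 155262443 to 155297654 of chromosome X (GRCm38, plus strand). Acot10, an intronless close copy of Acot9 whose coding sequence is 97.2% identical over 1317 aligned bases, had no counts in any library. All 6 Acot9 counts were whole numbers.

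Acot1 and Acot2 encode nearly the same enzyme, Acot1 in the cytosol and Acot2 in the mitochondrion, and are known as targets of the fatty acid receptor PPAR alpha in rodent liver. The genes lie 15617 bases apart on the plus strand of chromosome 12 of GRCm38, Acot2 (ENSMUSG00000021226) from 83987861 to 83993873 and Acot1 (ENSMUSG00000072949) from 84009490 to 84018371. Acot1 was at 22.7, 23.3 and 24.2 CPM in knockdown replicates 1, 2 and 3, against 53.8, 30.9 and 26.4 CPM in WT replicates 1, 2 and 3. Acot2 was at 13.9, 11.8 and 12.8 CPM in knockdown replicates, against 11.6, 9.89 and 8.41 CPM in WT replicates. Acot1 was thus lower and Acot2 higher in each knockdown library than in any WT library, although the nearest Acot2 values, 11.8 in knockdown and 11.6 in WT, almost touch. With 6 libraries Acot1 had a log2 fold change of -0.66 (SE 0.281, edgeR adjusted p = 0.323) and Acot2 of 0.36 (SE 0.172, edgeR adjusted p = 0.359). Without WT replicate 1, Acot1 fell by 0.31 on the log2 scale (SE 0.0905, edgeR adjusted p = 0.0238) and Acot2 rose by 0.47 (SE 0.123, edgeR adjusted p = 0.0129). The call of Acot1 was lost when knockdown replicate 2 (edgeR adjusted p = 0.0671), knockdown replicate 3 (0.0502) or WT replicate 2 (-0.19, 0.265) was left out as well, and that of Acot2 without WT replicate 3 (0.35, edgeR adjusted p = 0.152). After removal of the trend with GC content Acot1 was at -0.25 (edgeR adjusted p = 0.065).

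The ratio of Acot2 to Acot1 within a library does not depend on the scaling of libraries. It was 0.61, 0.505 and 0.529 in knockdown replicates 1, 2 and 3, against 0.216, 0.319 and 0.318 in WT replicates 1, 2 and 3, all from CPM. Its log2 was -0.87 ± 0.142 in knockdown and -1.84 ± 0.324 in WT libraries (SD, n = 3 each), a difference of 0.96 with all libraries and 0.78 without WT replicate 1. From TPM the log2 ratio was -1.35 ± 0.614 in knockdown and -2.96 ± 0.453 in WT libraries (SD, n = 3 each), a difference of 1.60, and 1.34 without WT replicate 1. An exact permutation test (two-sided) gave p = 0.1 on either scale, which no 3 against 3 design can go below. The ratio was chosen after the values were seen. On both scales Acot1 was lower and Acot2 higher in each knockdown library than in any WT library. The outcome of the test was therefore fixed beforehand, and it adds nothing to those values. The summed level of both genes was 36.6, 35.1 and 37.0 CPM in knockdown replicates, against 65.5, 40.8 and 34.8 CPM in WT replicates, and these groups overlapped. Coding sequences of the pair were identical at 95.3% of 1236 aligned bases, with a longest shared run of 273 bases, and 31.0% of the 100-base windows of the Acot1 coding sequence occur unchanged in that of Acot2. No count of either gene was a whole number, while their sum was whole in all 6 libraries (540.66 and 330.34, for example, in knockdown replicate 1), so that reads were divided between these paralogs and their separate levels, the ratio and both fold changes are uncertain. The TPM of Acot1 carries a further limit. If counts and TPM come from the same quantification, which is not stated, count over TPM reflects the length that it assumed. Scaled here so that the median gene has its deposited length, this was 2054, 991 and 1031 bases for Acot1 in knockdown replicates 1, 2 and 3. In WT replicates it was 677, 830 and 804 bases. On the log2(TPM + 1) scale without WT replicate 1, Acot1 was at -0.89 (limma adjusted p = 0.178) and Acot2 at 0.39 (limma adjusted p = 0.0553), neither called.

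Upstream of their starts the paralogs differ. The 250 bases before the RefSeq start (GRCm38.p6) are shown for the 4 genes that passed without WT replicate 1, to set the promoters of the paralog pair beside those of Acot8 and Acot9. Capitals mark CCAAT or its complement ATTGG, searched on both strands. Positions are chr12:84009252-84009501 for Acot1 and chr12:83987611-83987860 for Acot2, both plus strand, chrX:155262193-155262442 for Acot9, plus strand, and chr2:164804882-164805131 for Acot8, minus strand.
Acot1: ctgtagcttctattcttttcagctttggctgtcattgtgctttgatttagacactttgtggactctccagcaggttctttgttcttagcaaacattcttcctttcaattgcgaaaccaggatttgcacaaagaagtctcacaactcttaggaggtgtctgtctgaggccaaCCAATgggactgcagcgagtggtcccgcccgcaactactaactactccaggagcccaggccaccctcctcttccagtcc
Acot2: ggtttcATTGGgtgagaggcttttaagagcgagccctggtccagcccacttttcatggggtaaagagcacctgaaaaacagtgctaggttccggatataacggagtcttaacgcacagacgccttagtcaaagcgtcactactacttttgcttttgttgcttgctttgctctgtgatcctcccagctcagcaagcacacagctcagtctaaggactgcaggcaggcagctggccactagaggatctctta
Acot9: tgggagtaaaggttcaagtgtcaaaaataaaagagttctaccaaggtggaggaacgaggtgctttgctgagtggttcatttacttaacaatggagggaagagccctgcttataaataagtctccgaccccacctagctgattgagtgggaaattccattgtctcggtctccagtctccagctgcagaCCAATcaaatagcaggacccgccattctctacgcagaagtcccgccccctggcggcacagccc
Acot8: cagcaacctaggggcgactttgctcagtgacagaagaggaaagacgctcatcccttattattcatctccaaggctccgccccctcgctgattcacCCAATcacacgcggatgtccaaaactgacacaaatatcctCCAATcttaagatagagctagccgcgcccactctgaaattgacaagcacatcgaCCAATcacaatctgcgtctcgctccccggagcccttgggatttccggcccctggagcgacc
The Acot1 and Acot2 windows were identical at 55.7% of 221 aligned bases, with no shared run longer than 9 bases. CCAAT occurred once in Acot1, Acot2 and Acot9 and 3 times in Acot8. Of the 8 members with an entry 5 had it, these genes and Dbi, which was not called, while Acot7, Acbd5 and Acbd6 did not. CCAAT was found in 33.9% of all 32851 RefSeq promoter windows of this length. Here and below, members are counted by a match in any of their windows, while the shares of all are per window. Dbi and Acbd5 have more than 1 window, and not all windows of Dbi hold CCAAT. The GC box GGGCGG occurred in Acot1, Acot8 and Acot9 and not in Acot2. Of the 8 members 4 had it, Acot7 being the other, and 32.7% of all windows. AGGTCA, a half-site of nuclear receptors, was absent from the windows of all 8 members with an entry, and present in 14.02% of all windows. A match describes these letters and no binding.

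Acot8, a peroxisomal thioesterase that acts on many chain lengths, was at 17.3, 17.5 and 16.2 CPM in knockdown replicates 1, 2 and 3, against 10.3, 14.3 and 13.1 CPM in WT replicates 1, 2 and 3. All knockdown libraries lay above all WT libraries, and WT replicate 1 was the lowest. The log2 fold change was 0.44 (SE 0.162, edgeR adjusted p = 0.272) with 6 libraries and 0.30 (SE 0.0976, edgeR adjusted p = 0.0354) without WT replicate 1. That call was lost when knockdown replicate 2 (edgeR adjusted p = 0.0932), WT replicate 2 (0.0824) or WT replicate 3 (0.23, 0.258) was left out too, and after removal of the trend with gene length (0.27, edgeR adjusted p = 0.0626) or GC content (0.24, edgeR adjusted p = 0.0828). Acot8 (ENSMUSG00000017307) occupies bases 164792765 to 164804882 of chromosome 2 (GRCm38, minus strand), and its counts were not whole numbers in any library.

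Neither Acot7 nor Acot13 passed a test. Acot7, a cytosolic thioesterase known for its abundance in brain, was at 71.7, 80.8 and 74.6 CPM in knockdown replicates, against 141.9, 72.75 and 72.9 CPM in WT replicates. Its knockdown values lie around those of WT replicates 2 and 3, and WT replicate 1 alone is high. The log2 fold change was -0.34 (SE 0.292, edgeR adjusted p = 0.572) with 6 libraries and 0.041 (SE 0.0616, edgeR adjusted p = 0.658) without WT replicate 1. Acot13, also called Them2, a small thioesterase associated with mitochondria, was at 19.4, 19.4 and 20.8 CPM in knockdown replicates, against 63.7, 20.3 and 21.8 CPM in WT replicates. Apart from WT replicate 1 its groups overlapped, and the log2 fold change was -0.82 (SE 0.465, edgeR adjusted p = 0.422) with 6 libraries and -0.10 (SE 0.0884, edgeR adjusted p = 0.432) without WT replicate 1. Its TPM was 106.6 in WT replicate 3 and 63.3 in WT replicate 2, where the assumed lengths were 356 and 557 bases.

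Dbi encodes the diazepam binding inhibitor, the small cytosolic acyl-CoA binding protein that carries medium- and long-chain acyl-CoA. It was at 137.7, 166.7 and 176.8 CPM in knockdown replicates 1, 2 and 3, against 700.6, 186.9 and 199.2 CPM in WT replicates 1, 2 and 3. All knockdown libraries lay below all WT libraries, knockdown replicate 1 was the lowest, and WT replicate 1 was 3.63-fold above the mean of the other WT libraries. The log2 fold change was -1.18 (SE 0.549, edgeR adjusted p = 0.357) with 6 libraries and -0.28 (SE 0.122, edgeR adjusted p = 0.148) without WT replicate 1, and neither passed. Dbi passed in 7 of 18 alternatives of the 5-library fit, among them DESeq2 (-0.27, adjusted p = 0.0369), removal of the length trend (-0.22, edgeR adjusted p = 0.0026) and the fit without knockdown replicate 1 (-0.17, edgeR adjusted p = 0.00497). Dbi (ENSMUSG00000026385, chromosome 1 of GRCm38, 120113280 to 120121078, minus strand) has a deposited length of 491 bases, the shortest of the family.

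Among the larger binding proteins no gene passed in edgeR with or without WT replicate 1. Acbd3, a Golgi protein that recruits the lipid kinase PI4KB, was at 80.7, 75.2 and 80.3 CPM in knockdown replicates, against 58.9, 85.1 and 85.8 CPM in WT replicates. Its knockdown values lay below WT replicates 2 and 3 and above WT replicate 1, so that the sign of its log2 fold change turned: it was 0.04 (SE 0.181, edgeR adjusted p = 0.922) with 6 libraries and -0.13 (SE 0.0522, edgeR adjusted p = 0.0702) without that library. Acbd5, which tethers peroxisomes to the endoplasmic reticulum, was at 83.6, 74.5 and 77.1 CPM in knockdown replicates, against 57.3, 79.1 and 83.6 CPM in WT replicates, with groups that overlapped. Its log2 fold change was 0.10 (SE 0.179, edgeR adjusted p = 0.8) with 6 libraries and -0.070 (SE 0.058, edgeR adjusted p = 0.39) without WT replicate 1. Acbd6, which works with N-myristoyltransferases in protein myristoylation, was at 22.9, 18.4 and 20.7 CPM in knockdown replicates, against 40.2, 20.5 and 18.4 CPM in WT replicates. The log2 fold change was -0.35 (SE 0.322, edgeR adjusted p = 0.594) with 6 libraries and 0.071 (SE 0.107, edgeR adjusted p = 0.654) without WT replicate 1. The deposited length of Acbd6 is 5592 bases, while count over TPM gave assumed lengths of 1145 to 1278 bases in knockdown and 861 to 1270 bases in WT libraries.

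**Figure D3:**
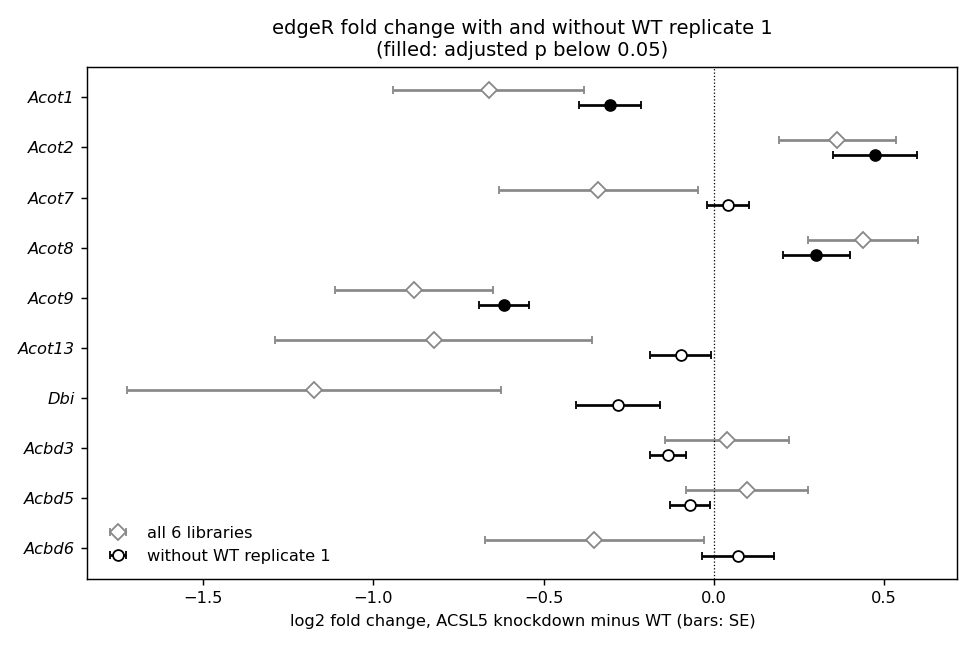
Log2 fold change of knockdown over WT (x axis; bars are SE) from edgeR with all 6 libraries (grey diamonds) and without WT replicate 1 (black circles, filled at an adjusted p below 0.05). Dbi is at -0.28 and Acot13 at -0.10 without WT replicate 1, against -1.18 and -0.82 with it, while Acot2 and Acot8 keep a positive value and Acot1 and Acot9 a negative one.

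How far WT replicate 1 departed from the other WT libraries differed by gene length. Dbi, of 491 bases, was 1.86 higher in it on the log2 CPM scale than the mean of WT replicates 2 and 3, and Acot13, of 721 bases, 1.60 higher. Acbd3, of 3471 bases, was at -0.54, and Acbd5, of 4804 bases, at -0.51. Over all tested genes the median of this difference was 1.07 for 444 genes of up to 600 bases, 0.34 for 3587 genes of 1500 to 2500 bases and -0.55 for 2511 genes of 4000 to 6000 bases. Of the 10 genes, 8 lay outside the quartiles of the tested genes of their length class: Dbi, Acot13, Acot7 (0.96), Acot1 (0.91), Acot9 (0.71) and Acbd6 (1.05) above them, and Acot8 (-0.41) and Acbd3 below, with Acot9 and Acbd3 close to the quartile itself. Acot2 (0.35) and Acbd5 were inside. By definition, as many tested genes of a class lie outside its quartiles as inside them. For Acbd6 the class is that of its deposited length, which is longer than its assumed lengths. The part of gene length in the fold changes of single genes was not tested beyond the fits with the trend removed, in which Dbi was at -0.41 (SE 0.150, edgeR adjusted p = 0.152) and Acot13 at -0.22 (SE 0.134, edgeR adjusted p = 0.347) with all 6 libraries.

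**Figure D4:**
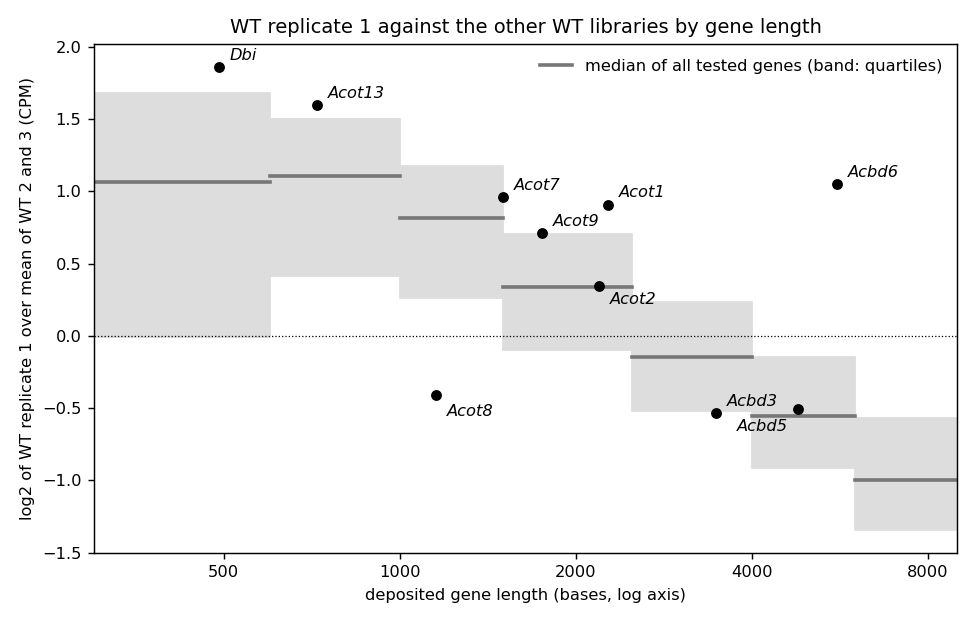
Log2 of CPM in WT replicate 1 over the mean of WT replicates 2 and 3 (y axis) against the deposited gene length (x axis, log scale) for the 10 genes (points), with the median (line) and quartiles (band) of all tested genes in 7 length classes. Dbi and Acot13 lie at the top left at 1.86 and 1.60. Of the 10 genes 8 lie outside the band, Acot2 (0.35) and Acbd5 (-0.51) being inside. The band leaves as many tested genes of a class outside as inside.

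The 7-base sequence GAACTAC of the Acsl5 coding region was singled out in an earlier reading of these fold changes and was looked up in the family. None of the 10 genes has it in the 3' UTR of its longest protein-coding transcript in GENCODE M21. In 4 of the 10, among them the paralogs Acot1 and Acot2, it lies in the coding sequence, where 10.3% of 12519 tested genes have it. The 30 bases around it are shown for these genes and for 1 of the 2 occurrences in Acsl5, with the 7 bases in capitals. Positions on GRCm38, plus strand, are chrX:155273091-155273120 for Acot9, chr12:84014546-84014575 for Acot1, chr12:83990661-83990690 for Acot2, chr1:180738527-180738556 for Acbd3 and chr19:55291465-55291494 for Acsl5.
Acot9: gtactgaccctGAACTACgagacaaatatg
Acot1: gaagaagccgtGAACTACctgcgcagccac
Acot2: gaagaagccgtGAACTACctgcgcagccac
Acbd3: cagtatccaggGAACTACgaacaacagcag
Acsl5: gtggctgacatGAACTACttttcagtaaac
The windows of Acot1 and Acot2 are the same, and without WT replicate 1 the first of these genes was lower (-0.31) and the second higher (0.47), both called, with reads divided between them as described above. As this sequence was singled out in these same fold changes, the shares of genes that hold it are no test. Its part in any fold change was not tested.

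Genes related to the family by function were read from the same fits. With 6 libraries none of them passed in edgeR, where 0.0% of all genes passed. Without WT replicate 1, 13 of 38 tested genes passed, 6 higher and 7 lower, which is near the share of all genes, 34.3%. Of 13 other acyl-CoA thioesterase genes 7 were tested, of which 2 rose and 1 fell (median 0.044), against 16.3% higher and 18.0% lower among all genes. Them6, of the thioesterase superfamily, rose to 33.2 ± 1.39 CPM in knockdown cells (SD, n = 3), against 18.4 ± 1.44 CPM in WT replicates 2 and 3 (SD, n = 2), a log2 fold change of 0.84 (edgeR adjusted p = 6.73e-05), and 0.67 (edgeR adjusted p = 0.19) with 6 libraries. Them4, a mitochondrial thioesterase, was lower by a log2 fold change of -1.05 (edgeR adjusted p = 0.00108; -1.18 with 6 libraries, adjusted p = 0.104) and the lysosomal Ppt2 higher by 0.32 (edgeR adjusted p = 0.00773; 0.25 with 6 libraries, adjusted p = 0.407). Acot3, Acot5, Acot10 and Them5 had no counts in any library. Of 5 other binding protein genes, 4 were tested and 1 fell (median -0.068). This was Scp2, the sterol carrier protein that also binds acyl-CoA, at -0.41 (edgeR adjusted p = 0.000829), and at -0.65 (edgeR adjusted p = 0.246) with 6 libraries. Eci2, a peroxisomal isomerase with an acyl-CoA binding domain, was at 0.0027 (edgeR adjusted p = 0.976) without WT replicate 1 and at -0.34 (edgeR adjusted p = 0.54) with it.

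Of 8 protein partners of the binding proteins, 1 rose and 1 fell (median -0.038), against 16.3% higher and 18.0% lower among all genes. Golgb1, the Golgi partner of Acbd3, fell by 0.39 on the log2 scale (edgeR adjusted p = 0.000484) without WT replicate 1 but was at -0.031 (edgeR adjusted p = 0.973) with it, and the myristoyltransferase gene Nmt2 rose by 0.18 (edgeR adjusted p = 0.00979; 0.19 with 6 libraries, adjusted p = 0.442). Coenzyme A synthesis and breakdown had 3 higher and 4 lower of 16 tested (median -0.0070), beside the same shares of all genes, 16.3% and 18.0%. The highest was Vnn1, a pantetheinase that breaks down the coenzyme A precursor pantetheine, at 39.5, 38.2 and 38.5 CPM in knockdown replicates, against 13.0, 14.9 and 13.2 CPM in WT replicates. All knockdown libraries lay well above all WT libraries, with a log2 fold change of 1.50 (SE 0.126, edgeR adjusted p = 0.0619) with 6 libraries and 1.45 (SE 0.0843, edgeR adjusted p = 2.66e-06) without WT replicate 1. Of the 4 lower genes without WT replicate 1, those with the smallest p were Enpp1, an ectoenzyme that can cleave coenzyme A (-0.46, edgeR adjusted p = 0.000251), the mitochondrial carrier gene Slc25a16 (-0.73, edgeR adjusted p = 0.000441) and the pantothenate kinase gene Pank2 (-0.44, edgeR adjusted p = 0.000467). With 6 libraries Enpp1 was at -0.30, Slc25a16 at -0.58 and Pank2 at -0.68, with edgeR adjusted p of 0.423, 0.212 and 0.234. Of 9 fatty acid binding protein genes 3 were tested and 0 passed (median -0.091), with Fabp1 at -0.26 (edgeR adjusted p = 0.221) and Fabp5 at -0.091 (edgeR adjusted p = 0.719). With 6 libraries these were at -0.98 (edgeR adjusted p = 0.371) and -0.38 (edgeR adjusted p = 0.514).

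**Figure D5:**
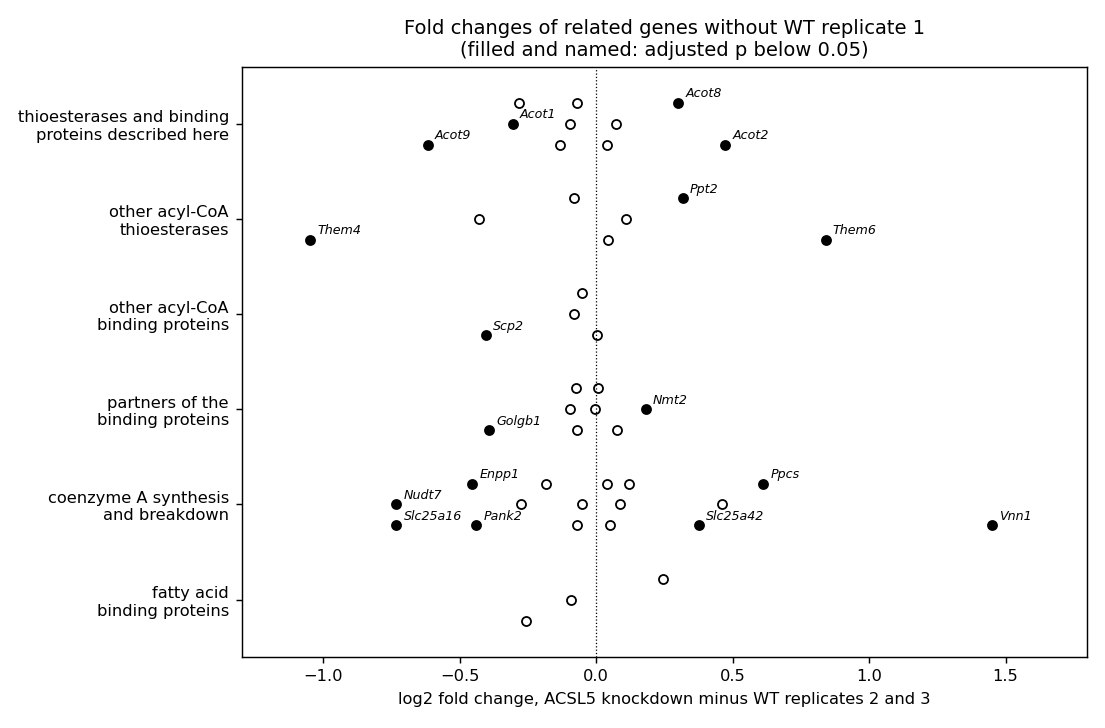
Log2 fold change of knockdown over WT replicates 2 and 3 (x axis) for tested genes of the family and of 5 related lists (rows), filled and named where the edgeR adjusted p is below 0.05. Every list with a called gene except the other binding proteins holds called genes on both sides of 0, and Vnn1 lies farthest out at 1.45.

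Genes with the most similar course over the 6 libraries were found by the root-mean-square difference of centred log2 CPM among 10725 genes whose mean level was 5 CPM or more. For Acot9 these were Bnip3 (difference 0.018), a mitophagy receptor gene, Tead2 (0.032), a transcription factor gene of the Hippo pathway, and Ap3m1 (0.048), an adaptor subunit gene. For Dbi they were Rpl36a (0.026), of the ribosome, Txndc17 (0.035), a thioredoxin-like protein gene, and Uqcrh (0.037), of respiratory complex III. The genes nearest to Dbi have deposited lengths of 483, 981 and 547 bases. WT replicate 1 was the highest library in all 6 of these genes.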

How the data were processed

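RNA of 3 ACSL5 knockdown and 3 WT libraries was measured by Illumina sequencing, per the labels' protocols. Tools listed in the submitters' processing notes are fastp, HISAT2, StringTie and DESeq2, with no version, role or order, and the builds listed are hg38 and GRCh38, although 56980 of the 57508 identifiers are mouse Ensembl genes. For quantifier, annotation and strandedness nothing is given in the sources used here. The authors deposited expected counts per gene and library, of which 10.1% to 13.0% per library are not whole, and TPM values. The group mean columns were not used.

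Counts were rounded to whole numbers, filtered with filterByExpr, scaled by TMM and tested by quasi-likelihood in edgeR 4.0.16 (robust, R 4.3.3), two-sided, over all genes, with Benjamini-Hochberg adjustment and a threshold of 0.05. SE is the absolute log2 fold change over the square root of F. Alternatives used DESeq2 1.42.0, limma 3.58.1 (voom, quality weights, and log2(TPM + 1) or log2(TPM + 0.1) on genes averaging 1 TPM or more in either group), other scalings and filters, lowess trends (span 0.3) with length or GC content, and left-out libraries. Code was tested on simulated data. Positions, GC content and transcripts come from GENCODE M21 (GRCm38), promoters from RefSeq (GRCm38.p6). The members, the lists and the rule for named genes were chosen with earlier results of these data known. The rule takes all members, Acsl5, up to 4 called genes of each related list by smallest p with the strongest in the other direction, 2 genes of a list with no call, and the 3 most similar genes for Acot9 and Dbi.

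Whether replicate numbers pair the libraries is not known. Same-numbered libraries had correlations of deviations from their group means of -0.12, 0.02 and -0.14. These values cannot show pairing or its absence, since deviations of WT replicates 2 and 3 largely mirror that of the outlying WT replicate 1. Knockdown replicate 3, for example, was at 0.16 with WT replicate 1 and at -0.15 and -0.14 with WT replicates 2 and 3.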

Additional observations from a re-analysis of the deposited data

How the results depend on the processing

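Of the 10 genes, 0 passed with 6 libraries. This became 1 in DESeq2, 1 after removal of the length trend, 1 after removal of both trends (length and GC), 4 with quality weights, and 0 to 4 over fits that omit 1 library, the 4 being without WT replicate 1. Genes called among all those tested were 1127 in DESeq2, 851, 557 and 5937 in the next settings, and 0 to 5193 over the omissions. Without WT replicate 1, 4 passed. This became 2 on either TPM scale and after removal of the GC trend, 1 at a threshold of 0.01, and 2 to 6 over fits that omit 1 more library (2 without knockdown replicate 2, WT replicate 2 or WT replicate 3). Counts over all genes moved too: 5193 of 15152 passed in edgeR, 2467 of 13881 with log2(TPM + 1), 2569 of 13881 with log2(TPM + 0.1), 4817 after removal of the GC trend, 3217 at 0.01, and 2599 to 6188 over the omissions. A single WT library left in a fit borrows its spread from the knockdown libraries. The replicate block gave 0 with 6 libraries and 5 without WT replicate 1 (5753 of all 15152 genes), Dbi being the addition. It is not known whether the numbers pair the libraries. Among the related lists, 0 genes passed with 6 libraries. This became 5 in DESeq2, 1 in limma-voom (8 of all 14679 genes) and 1 without robust estimation (5 of all 14679 genes). The number of these list genes was 3 after removal of the length trend, 2 after removal of both trends, 14 with quality weights, and 0 to 13 over fits that omit 1 library. Without WT replicate 1, 13 of these passed, 8 on either TPM scale and 9 to 14 over fits that omit 1 more library. The count of 5 genes whose groups do not overlap was 5 to 6 over such omissions. Over all genes that share rose from 34.3% with 6 libraries to 59.8% without WT replicate 1, and it is not given for the other omissions. The sign turned for 4 genes. With 6 libraries, Acot7 (-0.34) was at 0.028 on both TPM scales and 0.069 with quality weights, Acbd3 (0.04) at -0.017 after removal of the length trend and -0.13 with quality weights, Acbd5 (0.10) at -0.027 and -0.079 in those settings, and Acbd6 (-0.35) at 0.045 with quality weights. Without WT replicate 1, Acot7 (0.041) was at -0.13 after removal of both trends and -0.10 after that of GC alone, Acbd3 (-0.13) at 0.0013 after removal of GC alone, and Acbd5 (-0.070) at 0.035 on both TPM scales, 0.091 after removal of both trends and 0.063 after that of GC alone. Omitting single libraries gave -0.51 to 0.041 for Acot7, -0.13 to 0.13 for Acbd3, -0.070 to 0.19 for Acbd5 and -0.56 to 0.071 for Acbd6 with 6 libraries, and -0.0074 to 0.16 for Acbd6 without WT replicate 1. Of these 4 genes, 1 passed in 1 alternative, Acbd3 without both WT replicate 1 and knockdown replicate 1 (edgeR adjusted p = 0.0454). The cause of these changes was not tested. The removal of GC alone, the alternatives for the related lists and those for overlap were chosen after seeing the data. The small number of libraries and the unequal WT replicate 1 limit the precision of every fold change.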
